A study of Mus musculus with 12 samples.

Results

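Gene expression in white adipocytes that received a β-adrenergic signal while their lipases were blocked (Lip+ISO) was compared with that in untreated adipocytes (vehicle). The libraries were chosen by their labels alone, 3 of Lip+ISO and 3 of vehicle, so 6 of the 12 libraries of the study enter this comparison. All cells were mature adipocytes floated from collagenase-digested epididymal white fat (eWAT) of lean male C57/BL6J mice and cultured in 3 dimensions, embedded in a hydrogel, for 2 days. The vehicle group received DMSO. The Lip+ISO group was pre-treated with inhibitors of adipose triglyceride lipase (ATGL) and hormone-sensitive lipase (HSL), which the study's methods name as Atglistatin and CAY10499, and then received isoproterenol (ISO), a β-adrenergic receptor agonist, for 3 h. The sample titles and the study's account of these cells name ISO, as does its legend, which in its treatment details gives SR-3420, an activator of lipolysis, in that place, and ISO was followed here. The remaining groups, ISO alone and inhibitors alone (Lip), with 3 libraries each, are given beside the comparison where they help to place a value. Floated cells can carry other cell types of the fat pad and are a short-term culture, and all 4 groups share the isolation and the hydrogel.

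In adipocytes, β-adrenergic receptors couple to G-proteins that raise cAMP. cAMP activates protein kinase A (PKA), which phosphorylates the transcription factor CREB and its relatives in the nucleus and, at the lipid droplet, HSL and perilipin. Phosphorylated perilipin releases ABHD5, the coactivator of ATGL, and the fatty acids that ATGL and HSL free from triglyceride serve as fuel and as ligands of PPAR nuclear receptors. In the Lip+ISO group the signal to PKA is present and the release of fatty acids is meant to be blocked, so the comparison with vehicle asks which genes differ from the untreated state when the adrenergic signal acts with little or no lipolysis.

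The 6 libraries held between 22632220 (vehicle replicate 2) and 31930599 counts (vehicle replicate 1), and those of Lip+ISO between 25573299 and 27263785. Counts were scaled to CPM (counts relative to a library's total, with totals adjusted by TMM), so CPM compares a gene between libraries and not 1 gene with another. No gene length enters CPM. The limit that a count of 0 sets, taken as 3 counts, was 0.0947 to 0.126 CPM in these 6 libraries and covers counting error only. Of 20295 genes, 13543 had enough counts to be tested. Fabp4, the adipocyte fatty acid binding protein, was the most abundant gene in each library, with 1.12% to 1.74% of counts, and its log2 fold change was -0.17 with an SE of 0.13 (edgeR adjusted p = 0.40). These marker levels are those of adipocytes, and the markers of other cell types are given at the end.

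A gene was called when its adjusted p was at or under 0.05 (edgeR quasi-likelihood test, two-sided, Benjamini-Hochberg adjustment over all tested genes) and its log2 fold change was at least 1 in size. In Lip+ISO, 673 genes were called higher (4.97% of those tested) and 432 were called lower (3.19%) than in vehicle. Rises were larger than falls. The median log2 fold change was 1.97 among the called rises and -1.27 among the called falls, and 156 genes rose by at least 3 on the log2 scale while 5 fell as far. Without a minimum size, 1649 genes were higher (12.2%) and 2199 were lower (16.2%), so falls outnumbered rises under this looser rule. The called rises together took 2.54% of counts in vehicle and 8.67% in Lip+ISO, and the called falls took 3.33% and 1.07%. Where the higher group also had to reach 5 CPM and the libraries of both groups not to overlap, 420 of the rises and 356 of the falls remained. The groups overlapped for 18 of the called rises and 1 of the called falls. Among all 13543 tested genes, every Lip+ISO library lay above every vehicle library for 2461 and below for 3016. The median over all tested genes was 0.0033.

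**Figure D1:**
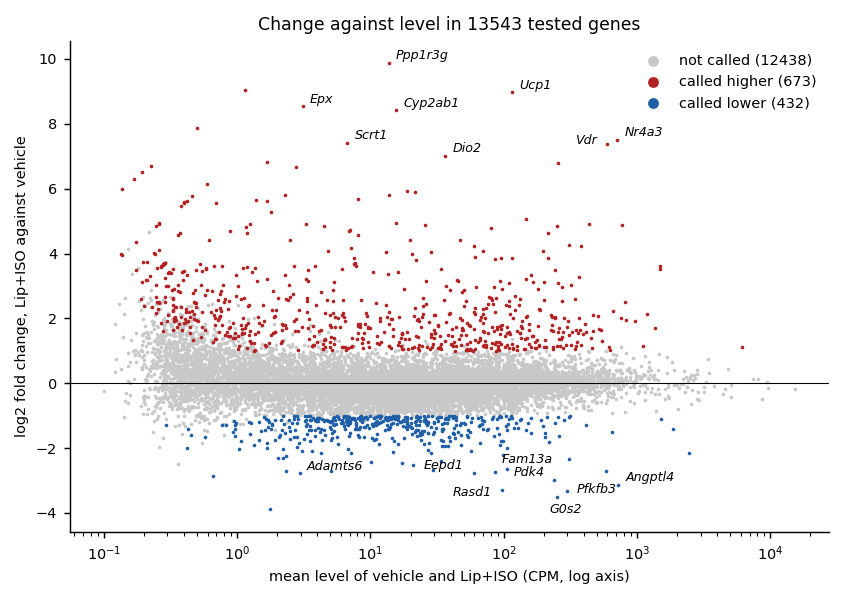
Each point is 1 of 13543 tested genes, with the mean CPM of the vehicle and Lip+ISO libraries on the horizontal log axis and the log2 fold change of Lip+ISO against vehicle on the vertical axis. The 673 genes called higher (red) extend to a log2 fold change near 9.87 (Ppp1r3g), whereas the 432 called lower (blue) lie mostly near their median of -1.27, and the labelled genes are the 8 largest rises and 8 largest falls with at least 5 CPM.

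The 8 largest rises, in order of their gene symbols, were those of Cyp2ab1, Dio2, Epx, Nr4a3, Ppp1r3g, Scrt1, Ucp1 and Vdr. Because several of them are known targets of cAMP signaling, the promoters from RefSeq (GRCm38.p6, from 250 bases before to 50 bases after the annotated start) were searched for the full cAMP response element TGACGTCA, which CREB binds, and for its shorter core TGACG or its reverse complement CGTCA. Both strands were covered, since the full element reads the same on each, and every full element also counts as a core. Of the 8 genes, 7 had a promoter in the table, and that of Dio2 (chr12:90738989-90739288, minus strand) was alone in holding the full element, at position -95 counted from the start site. The promoter of Nr4a3 (chr4:48045055-48045354, plus strand) held 4 copies of the core, and those of Ucp1 (chr8:83290098-83290397, plus strand) and Ppp1r3g (chr13:35967656-35967955, plus strand) held 1 each. Their sequences are shown because these genes gave the largest rises, with the full element in capitals for Dio2 and the core in capitals for the others, which were picked after their letters had been seen.
Dio2: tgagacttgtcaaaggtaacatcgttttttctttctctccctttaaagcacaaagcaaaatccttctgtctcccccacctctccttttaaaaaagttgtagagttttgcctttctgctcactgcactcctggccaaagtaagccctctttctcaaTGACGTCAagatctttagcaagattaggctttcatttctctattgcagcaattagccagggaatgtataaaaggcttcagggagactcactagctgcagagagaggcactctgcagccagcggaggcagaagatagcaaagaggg
Nr4a3: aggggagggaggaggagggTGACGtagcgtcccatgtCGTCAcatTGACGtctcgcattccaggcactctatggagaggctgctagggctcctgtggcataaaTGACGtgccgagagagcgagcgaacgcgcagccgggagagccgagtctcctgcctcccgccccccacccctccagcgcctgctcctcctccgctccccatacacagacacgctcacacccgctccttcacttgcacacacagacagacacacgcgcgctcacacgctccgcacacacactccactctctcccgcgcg
Ucp1: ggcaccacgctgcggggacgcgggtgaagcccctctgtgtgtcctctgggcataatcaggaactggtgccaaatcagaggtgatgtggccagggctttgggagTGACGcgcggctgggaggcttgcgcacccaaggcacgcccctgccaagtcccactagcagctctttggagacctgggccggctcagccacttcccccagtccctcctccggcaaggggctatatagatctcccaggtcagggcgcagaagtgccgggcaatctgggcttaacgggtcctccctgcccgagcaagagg
Ppp1r3g: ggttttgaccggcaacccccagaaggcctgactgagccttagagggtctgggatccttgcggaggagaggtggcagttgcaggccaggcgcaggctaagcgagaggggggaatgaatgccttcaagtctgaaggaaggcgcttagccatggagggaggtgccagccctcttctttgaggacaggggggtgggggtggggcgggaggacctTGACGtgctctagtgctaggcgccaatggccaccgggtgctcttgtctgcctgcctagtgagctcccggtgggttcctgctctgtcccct

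The promoters of Epx, Cyp2ab1 and Vdr held neither the full element nor the core in this window. The core was also present in the promoters of G0s2 and Pfkfb3, which are among the largest falls. A match of letters is a description of the sequence and says nothing of binding in these cells. Over the called rises, 27 of 504 genes with a promoter in the table held the full element (5.36%) and 200 held the core (39.7%). Among rises of at least 3 on the log2 scale, 4 of 114 genes held the full element (3.51%) and 45 the core (39.5%). Over the called falls these were 12 of 326 (3.68%) and 97 (29.8%), and over all tested genes 361 of 10210 (3.54%) and 3513 (34.4%). Among all 32851 promoters of the same length, 1.79% held the full element and 20.8% the core. The E-box CACGTG, which the clock proteins CLOCK and BMAL1 bind, was in the promoters of 11.3% of the called rises, 10.1% of the called falls and 11.6% of tested genes. These shares are given as counts, with no test.

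Ppp1r3g (NM_029628, mm9 chromosome 13, 36059775 to 36062257, plus strand) encodes a subunit that brings protein phosphatase 1 to glycogen. It had 0, 0.0839 and 0 CPM in the 3 vehicle libraries, at most 2 counts, and 25.3, 23.5 and 33.2 CPM in the 3 Lip+ISO libraries. Set against 3 counts per library, this was at least 242-fold higher (edgeR adjusted p = 1.5e-08). The groups did not overlap for this gene or for the other 15 largest changes, which their choice required. Against ISO, the level of Ppp1r3g in Lip+ISO was higher by 0.95 on the log2 scale (edgeR adjusted p = 0.027). That difference was lost in 5 of 15 fits that left out libraries. Ucp1 (NM_009463, mm9 chromosome 8, 85814247 to 85822355, plus strand), the mitochondrial uncoupling protein of brown and beige fat, had 0.347, 0.545 and 0.509 CPM in vehicle and 192, 192 and 309.9 CPM in Lip+ISO, a log2 fold change of 8.97 with an SE of 0.38 (edgeR adjusted p = 4.1e-09). For Ucp1 the difference from ISO was 0.86 (edgeR adjusted p = 0.0355) and did not pass in DESeq2 (DESeq2 adjusted p = 0.13). The second thermogenic gene of this group was Dio2 (NM_010050, mm9 chromosome 12, 91962992 to 91976878, minus strand), the deiodinase that makes active thyroid hormone. Its levels were 0.663, 0.545 and 0.431 CPM in vehicle and 69, 63.5 and 84.4 CPM in Lip+ISO, a log2 fold change of 7.02 with an SE of 0.24 (edgeR adjusted p = 1.1e-09). In ISO alone Dio2 reached 9.47 ± 2.04 CPM (SD, n = 3), so Lip+ISO was higher than ISO by 2.94 with an SE of 0.18 (edgeR adjusted p = 1.3e-06) on the log2 scale.

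Nr4a3 (NM_015743, mm9 chromosome 4, 48064120 to 48096224, plus strand) encodes an orphan nuclear receptor that cAMP induces as an early gene. Its 5.81, 6.88 and 10.5 CPM in vehicle stood against 1508, 1167 and 1548 CPM in Lip+ISO, a log2 fold change of 7.52 with an SE of 0.39 (edgeR adjusted p = 3.0e-08). Vdr (NM_009504, mm9 chromosome 15, 97684858 to 97738727, minus strand), the vitamin D receptor, had 5.31, 7.59 and 8.42 CPM in vehicle and 1184, 1051 and 1328 CPM in Lip+ISO, a log2 fold change of 7.39 with an SE of 0.29 (edgeR adjusted p = 2.8e-09). Every Lip+ISO library held far more of both genes than any vehicle library. The ISO libraries lay between at 361, 301 and 325 CPM for Vdr, and Lip+ISO exceeded them by 1.85 with an SE of 0.22 (edgeR adjusted p = 0.00019) on the log2 scale. For Nr4a3 the difference from ISO was 0.80 with an SE of 0.29 (edgeR adjusted p = 0.11) and did not pass.

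The 3 other large rises were of genes that vehicle libraries held at no more than 3 counts. Cyp2ab1 (NM_183158, mm9 chromosome 16, 20308460 to 20325477, minus strand), a cytochrome P450, had 0.0316, 0.126 and 0.117 CPM in vehicle and 18.8, 32 and 42.9 CPM in Lip+ISO, a level at least 277-fold above vehicle (edgeR adjusted p = 1.7e-07). Scrt1 (NM_130893, mm9 chromosome 15, 76346633 to 76352559, minus strand), a zinc finger repressor known from neurons, had 0.0947, 0.0839 and 0.0392 CPM in vehicle and 13, 10.1 and 16.9 CPM in Lip+ISO, a level at least 118-fold above vehicle (edgeR adjusted p = 4.4e-07). Epx (NM_007946, mm9 chromosome 11, 87677500 to 87689038, minus strand) encodes eosinophil peroxidase, a granule enzyme of eosinophils. Vehicle libraries held no more than 1 count of it and Lip+ISO libraries 2.14, 6.30 and 10.2 CPM, which is at least 55-fold more (edgeR adjusted p = 2.1e-05), with Lip+ISO replicate 1 the lowest of its group. ISO alone gave similar levels of Epx, 3.66, 6.15 and 10.2 CPM, and Lip+ISO did not pass against ISO (log2 -0.10, edgeR adjusted p = 0.93). Of the eosinophil and mast cell markers, 4 of 12 had enough counts to be tested, and Cpa3, Kit and Cma1 did not pass while Epx did. Their summed level was 3.63 to 9.15 CPM in vehicle and 6.99 to 14.3 CPM in Lip+ISO, and Epx was part of that sum. The list's other eosinophil genes, Prg2, Siglecf, Ccr3, Il5ra and Ear2, had too few counts to be tested. Each held at most 0.252 CPM in any vehicle library and 0.318 CPM in any Lip+ISO library. In bulk cultures, more cells of a type and more RNA per cell cannot be told apart.

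**Figure D2:**
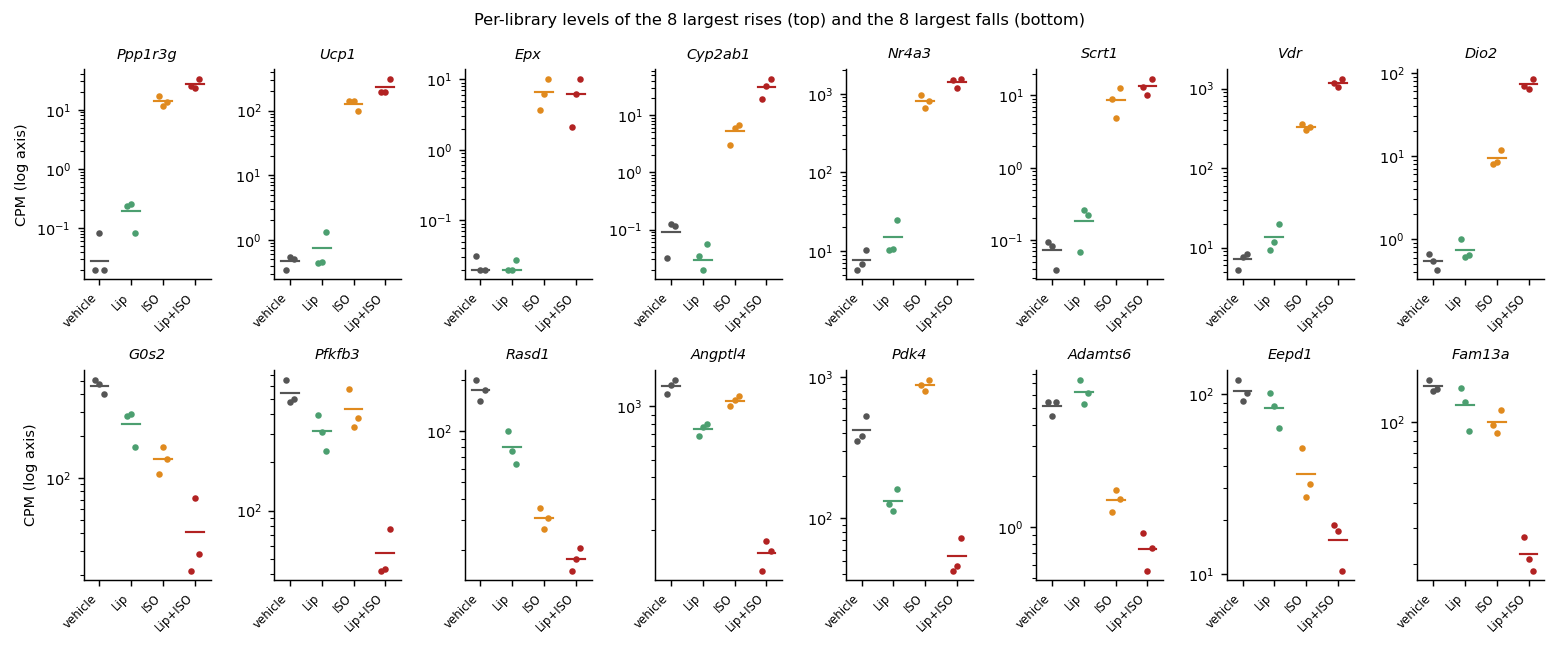
Levels in CPM on log axes are shown for each of the 12 libraries (points) with the group mean (bar), for the 8 largest rises in the top row and the 8 largest falls in the bottom row. Values under 0.02 CPM are drawn at 0.02. In each panel the 3 Lip+ISO points lie wholly above or wholly below the 3 vehicle points, and for Pdk4 the ISO points lie on the opposite side of vehicle from the Lip+ISO points.

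The 8 largest falls were led by genes of lipid release, glucose use and fatty acid responses. G0s2 (NM_008059, mm9 chromosome 1, 195098354 to 195099382, minus strand) encodes an inhibitor of ATGL. It fell from 509, 476 and 403 CPM in vehicle to 21.6, 71.9 and 28.2 CPM in Lip+ISO, a log2 fold change of -3.51 with an SE of 0.39 (edgeR adjusted p = 2.3e-05), with Lip+ISO replicate 2 the highest of its group. Angptl4 (NM_020581, mm9 chromosome 17, 33911845 to 33918520, minus strand), a secreted inhibitor of lipoprotein lipase and a classical PPAR target, had 1169, 1314 and 1414 CPM in vehicle and 118, 175 and 153 CPM in Lip+ISO, a log2 fold change of -3.13 with an SE of 0.14 (edgeR adjusted p = 7.6e-09). Angptl4 had a mean of 1078 CPM in ISO and of 747 CPM in Lip, so Lip+ISO held the lowest of the 4 means. Pdk4 (NM_013743, mm9 chromosome 6, 5433351 to 5446278, minus strand), the kinase that shuts pyruvate out of the mitochondrial oxidation of glucose and a second PPAR target, had 352, 383 and 530.4 CPM in vehicle and 42.7, 45.8 and 72.5 CPM in Lip+ISO, a log2 fold change of -2.97 with an SE of 0.22 (edgeR adjusted p = 6.4e-07). With ISO alone the level of Pdk4 was above vehicle, at 883, 799.6 and 956 CPM, and Lip+ISO differed from ISO by -4.04 with an SE of 0.23 (edgeR adjusted p = 8.0e-07) on the log2 scale. Inhibitors alone gave 126, 113 and 162 CPM, between vehicle and Lip+ISO, and Lip+ISO differed from Lip by -1.32 with an SE of 0.21 (edgeR adjusted p = 0.00042). For G0s2 that difference from Lip was -2.59 with an SE of 0.38 (edgeR adjusted p = 0.00021).

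Pfkfb3 (NM_001177758, mm9 chromosome 2, 11393058 to 11475556, minus strand) makes fructose-2,6-bisphosphate, an activator of glycolysis. Its levels were 656, 478 and 501 CPM in vehicle and 42.2, 43.3 and 76.7 CPM in Lip+ISO, a log2 fold change of -3.33 with an SE of 0.29 (edgeR adjusted p = 2.5e-06). The ISO mean was 428 ± 128 CPM (SD, n = 3) beside a vehicle mean of 545 CPM, and Lip+ISO differed from ISO by -2.98 with an SE of 0.28 (edgeR adjusted p = 4.2e-05) on the log2 scale. Rasd1 (NM_009026, mm9 chromosome 11, 59776685 to 59778444, minus strand), a small GTPase that dampens G-protein signaling, had 200.01, 151 and 174 CPM in vehicle and 15.1, 17.7 and 20.5 CPM in Lip+ISO, a log2 fold change of -3.30 with an SE of 0.18 (edgeR adjusted p = 5.1e-08). Its span overlaps Med9, and since the counting is not stated to use strand, reads of the pair may be mixed. Unlike Pdk4 and Pfkfb3, Rasd1 was low in ISO too, at 35.3, 26.6 and 30.8 CPM. The other 3 falls were of Fam13a (NM_153574, mm9 chromosome 6, 58883530 to 58974496, minus strand), Eepd1 (NM_026189, mm9 chromosome 9, 25289182 to 25411695, plus strand) and Adamts6 (NM_001081020, mm9 chromosome 13, 105077953 to 105284843, plus strand), a secreted metalloprotease. Fam13a, which has been tied to fat distribution and insulin action in adipocytes, had 161, 141 and 145 CPM in vehicle and 27.3, 21.1 and 18.6 CPM in Lip+ISO, a log2 fold change of -2.74 with an SE of 0.19 (edgeR adjusted p = 2.9e-07). Eepd1 and Adamts6 had log2 fold changes of -2.75 and -2.78 (edgeR adjusted p = 5.6e-06 and 3.4e-06).

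Abundant genes moved as well. Among called rises the highest mean CPM belonged to Tgm2, Uap1, Ugdh, Srxn1 and Rnf19b. Tgm2, a transglutaminase that crosslinks proteins, rose from 3870.4 ± 553 to 8316 ± 774 CPM (SD, n = 3), a log2 fold change of 1.1 with an SE of 0.15 (edgeR adjusted p = 0.00013). Srxn1, which repairs oxidised peroxiredoxins, had a log2 fold change of 1.70 with an SE of 0.18 (edgeR adjusted p = 1.4e-05), and Rnf19b, a ubiquitin ligase, of 2.13 with an SE of 0.18 (edgeR adjusted p = 2.6e-06). Thbs1, Cebpa, Tusc5 and Angptl4 were among the called falls of highest mean CPM. Thbs1, the matrix protein thrombospondin 1, fell from 3310.4, 3661 and 5108 CPM to 1002, 875 and 824 CPM, a log2 fold change of -2.16 with an SE of 0.20 (edgeR adjusted p = 4.5e-06). Tusc5, which helps the glucose transporter GLUT4 to recycle in fat cells, had 1021, 875 and 979.9 CPM in vehicle and 377, 339 and 292 CPM in Lip+ISO, a log2 fold change of -1.51 with an SE of 0.12 (edgeR adjusted p = 1.1e-06).

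Uap1 and Ugdh belong to the synthesis of sugar nucleotides from which hyaluronan is built, and the other genes of that route were examined for this reason, after their values had been seen. Of 9 genes looked at, Gfpt2, Uap1, Ugdh and Has1 were called higher. The calls of Uap1 and Ugdh prompted the look and were known beforehand, and over all tested genes 4.97% were called higher. Gfpt2, which with Gfpt1 opens the hexosamine pathway, had 21.9, 33.8 and 29.7 CPM in vehicle and 642, 769.8 and 1128 CPM in Lip+ISO, a log2 fold change of 4.90 with an SE of 0.26 (edgeR adjusted p = 3.0e-08). Gfpt1 stood at 161 and 170.3 CPM and did not pass (log2 fold change 0.08, edgeR adjusted p = 0.72). Uap1, which makes UDP-N-acetylglucosamine, had 237, 207 and 234 CPM in vehicle and 2405, 2635 and 3278 CPM in Lip+ISO, a log2 fold change of 3.62 with an SE of 0.15 (edgeR adjusted p = 3.5e-09). Ugdh, which makes UDP-glucuronate, went from 239, 234 and 244 CPM to 2545, 2491 and 3182 CPM, a log2 fold change of 3.52 with an SE of 0.10 (edgeR adjusted p = 6.5e-10). Ugp2, which makes UDP-glucose, rose by less than the minimum fold, by 0.57 with an SE of 0.08 (edgeR adjusted p = 0.00012), and its span overlaps Vps54. Has1, a hyaluronan synthase, had 0.284, 0.923 and 0.352 CPM in vehicle and 12.9, 11.7 and 15.1 CPM in Lip+ISO, a log2 fold change of 4.70 with an SE of 0.45 (edgeR adjusted p = 5.5e-06). The other synthases gave different values. Has2 had 1.68 CPM in vehicle and 1.72 CPM in Lip+ISO, with 8.65 CPM in ISO, and its log2 fold change of 0.03 against vehicle did not pass (edgeR adjusted p = 0.95). Has3 was under 1 CPM in all 6 libraries and did not pass, nor did Pgm3 (0.31, edgeR adjusted p = 0.27), which passed with a replicate block (edgeR adjusted p = 0.014). Tnfaip6, a secreted protein that modifies hyaluronan, had 3.66, 4.24 and 5.68 CPM in vehicle and 631, 447 and 432 CPM in Lip+ISO, a log2 fold change of 6.80 with an SE of 0.23 (edgeR adjusted p = 1.2e-09).

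To describe the state by pathway, 17 lists of genes were counted against the background shares of 4.97% called higher and 3.19% called lower. The lists overlap in part, and a list's count is a description of its members, not a test of the list.

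**Figure D3:**
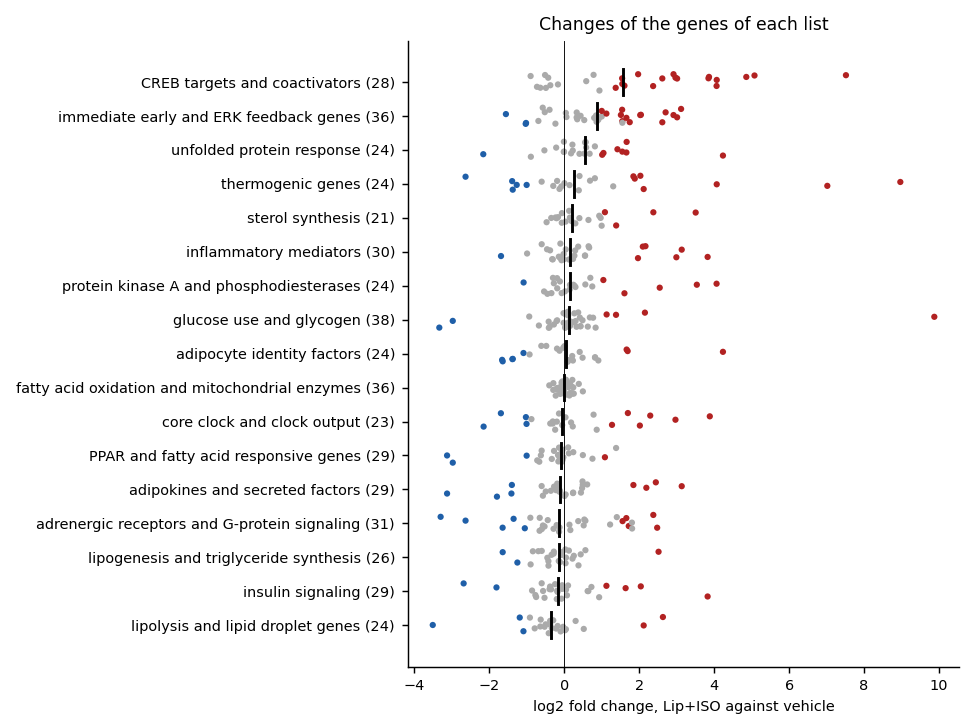
Each point is the log2 fold change of 1 tested gene in Lip+ISO against vehicle, in rows for the 17 lists ordered by their median (black bar), with the number of tested genes in brackets. Red points were called higher, blue points lower and grey points were not called. CREB targets have the highest median, 1.58, lipolysis and lipid droplet genes the lowest, -0.36, and the fatty acid oxidation list has no called gene.

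At the top of the adrenergic pathway, the genes of the β3- and β1-receptors fell. Of 31 tested genes of adrenergic receptors and G-protein signaling, 5 were called higher and 5 lower, and 12 were lower and 6 higher without a minimum fold. The median was -0.13. Adrb3, the main β-adrenergic receptor of mouse adipocytes, fell from 161, 152 and 236 CPM in vehicle to 23.3, 27.7 and 37.2 CPM in Lip+ISO, a log2 fold change of -2.63 with an SE of 0.23 (edgeR adjusted p = 2.5e-06). Its means were 79.8 CPM in Lip and 28.8 CPM in ISO, and Lip+ISO did not pass against ISO (log2 0.04, edgeR adjusted p = 0.94). Adrb1 (log2 -1.35, SE 0.18, edgeR adjusted p = 0.00010) and the α-receptor gene Adra1a (log2 -1.65, SE 0.23, edgeR adjusted p = 0.00016) fell against vehicle too. They did not pass against ISO either (0.08 and 0.47). Among the adenylyl cyclases, which make cAMP, Adcy6 fell from 342 ± 23.6 to 165 ± 13.4 CPM (SD, n = 3) and Adcy3 rose from 23.8 ± 4.67 to 75 ± 13.9 CPM (SD, n = 3), with Adcy3 overlapping Cenpo. The arrestin-domain genes Arrdc3 and Arrdc4, whose proteins bind activated receptors, were called higher. Arrdc3 had 44.1, 35.5 and 36.2 CPM in vehicle and 129, 101 and 111 CPM in Lip+ISO, a log2 fold change of 1.56 with an SE of 0.12 (edgeR adjusted p = 1.0e-06), while the ISO libraries stayed at 31.4, 37.1 and 34.9 CPM. Arrdc4 had a log2 fold change of 1.72 with an SE of 0.15 (edgeR adjusted p = 2.8e-06) and Rgs2, which speeds the shut-off of G-proteins, of 2.38 with an SE of 0.26 (edgeR adjusted p = 1.9e-05).

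Genes that remove cAMP were among the rises. Of 24 tested genes of PKA and the phosphodiesterases, 5 were called higher and each of them encodes a phosphodiesterase. Pde4d had 22.3, 20.5 and 24.3 CPM in vehicle and 407, 333 and 381 CPM in Lip+ISO, a log2 fold change of 4.06 with an SE of 0.16 (edgeR adjusted p = 2.8e-09), and Pde10a had 5.08, 6.21 and 4.78 and 52.1, 53.8 and 80.5 CPM, a log2 fold change of 3.54 with an SE of 0.18 (edgeR adjusted p = 2.9e-08). Pde7b, Pde4b and Pde8a had log2 fold changes of 2.55, 1.61 and 1.04. The catalytic subunit genes Prkaca and Prkacb did not pass (-0.12 and -0.19). Akap1, which anchors PKA at mitochondria, was the gene of this list called lower, at -1.08 with an SE of 0.12 (edgeR adjusted p = 1.7e-05). Without a minimum fold 3 genes of the list were lower, 6 with a replicate block and 1 without replicate 3 of each group.

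Among CREB targets the calls were rises. Of 28 tested CREB targets and coactivators, 17 were called higher and 0 lower, and without a minimum fold 20 were higher and 7 lower (4 without Lip+ISO replicate 2). Crem, which encodes both activators and the inducible cAMP repressor ICER, had 14.7, 15 and 15.2 CPM in vehicle and 214, 206 and 232 CPM in Lip+ISO, a log2 fold change of 3.86 with an SE of 0.11 (edgeR adjusted p = 6.5e-10). The 3 receptors of the Nr4a family all rose. Beside Nr4a3, described above, Nr4a1 went from 16, 19.4 and 15.1 CPM to 706, 387 and 370.4 CPM (log2 4.86, SE 0.30, edgeR adjusted p = 1.3e-07) and Nr4a2 from 7.61, 7.01 and 10.8 CPM to 432, 221 and 204 CPM (log2 5.08, SE 0.31, edgeR adjusted p = 1.2e-07), with Lip+ISO replicate 1 the highest for both. Sik1, a kinase that feeds back on the CREB coactivators, had a log2 fold change of 3.85 with an SE of 0.25 (edgeR adjusted p = 2.3e-07). Genes of the machinery itself were lower by less than the minimum fold, Crtc3 at -0.73, Crtc2 at -0.51, Crtc1 at -0.43 and Creb1 at -0.37 on the log2 scale. Pck1, the textbook CREB target of liver, which in fat serves glycerol synthesis, was lower in Lip+ISO, with 1311, 858 and 979 CPM in vehicle and 524, 526 and 639 CPM in Lip+ISO (log2 -0.90, SE 0.26, edgeR adjusted p = 0.020). That difference no longer passed without vehicle replicate 1 (-0.71, edgeR adjusted p = 0.088), without Lip+ISO replicate 1 (-0.85, edgeR adjusted p = 0.059), without Lip+ISO replicate 2 (-0.85, edgeR adjusted p = 0.064) or without replicate 2 of each group (-0.98, edgeR adjusted p = 0.097). The Lip libraries, at 600.02, 413 and 379 CPM, were lower still in mean.

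Immediate early genes moved in both directions or did not pass. Of 36 tested immediate early and ERK feedback genes, 14 were called higher and 3 lower. The AP-1 genes rose, with Junb at 2.92, Fosb at 3.01, Fosl1 at 3.12, Jun at 1.51 and Fos at 0.94 on the log2 scale (largest edgeR adjusted p = 0.0013, that of Fos), and Fosl1 overlaps Ccdc85b. Egr1, the early gene that ERK signaling induces through Srf, had 27.6, 36.9 and 32.5 CPM in vehicle and 47.1, 38.1 and 38.1 CPM in Lip+ISO, groups that did not overlap, and its log2 fold change of 0.35 with an SE of 0.13 (edgeR adjusted p = 0.074) did not pass. It did pass in DESeq2 (0.38, DESeq2 adjusted p = 0.032), with relative log expression size factors (0.38, edgeR adjusted p = 0.049) and without vehicle replicate 2 (0.44, edgeR adjusted p = 0.046). In ISO alone it stood at 431, 329.7 and 354 CPM, so the difference between Lip+ISO and ISO was -3.18 with an SE of 0.14 (edgeR adjusted p = 2.2e-07). Egr2 and Egr3 did not pass against vehicle either (0.04 and 0.33). The feedback inhibitors of ERK signaling split. Dusp5 rose from 8.62, 10.6 and 9.32 to 47.6, 28.1 and 41.9 CPM (log2 2.05, SE 0.17, edgeR adjusted p = 1.8e-06), while Spry1 (log2 -1.56, SE 0.17, edgeR adjusted p = 1.7e-05) and Spry4 (log2 -1.03, SE 0.09, edgeR adjusted p = 3.5e-06) fell, as did Myc (log2 -1.02, SE 0.11, edgeR adjusted p = 1.5e-05). The log2 fold change of Myc was -0.99 in DESeq2, short of the minimum fold.

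The thermogenic list held Ucp1 and Dio2, which are among the 8 largest rises, and also genes that fell. Of its 24 tested members, 7 passed as rises with the minimum fold and 5 as falls, the latter being all that were lower without a minimum fold (3 without replicate 2 of each group). Ucp1 and Dio2 led, followed by Ppargc1a, the coactivator PGC-1α that drives mitochondrial genes. Ppargc1a had 6.03, 7.85 and 9.71 CPM in vehicle and 136, 117 and 141 CPM in Lip+ISO, a log2 fold change of 4.07 with an SE of 0.20 (edgeR adjusted p = 1.6e-08). Cidea, a lipid droplet protein of brown fat, had 2.56, 1.13 and 1.84 CPM in vehicle and 9.14, 6.49 and 8.66 CPM in Lip+ISO (log2 2.12, SE 0.32, edgeR adjusted p = 0.00028). The beige regulators Zfp516 (log2 2.03, SE 0.16, edgeR adjusted p = 9.1e-07) and Irf4 (log2 1.88, SE 0.35, edgeR adjusted p = 0.0013) rose as well. Ppargc1b, the coactivator PGC-1β, fell (log2 -1.27, SE 0.27, edgeR adjusted p = 0.0035), though it did not pass without replicate 2 of each group (-1.25, edgeR adjusted p = 0.064). Ppara, the fatty acid receptor of brown fat and liver, had 18.8, 19.6 and 21.1 CPM in vehicle and 5.01, 6.89 and 10.8 CPM in Lip+ISO (log2 -1.39, SE 0.20, edgeR adjusted p = 0.00021), whereas ISO alone stood at 20, 19.7 and 20.5 CPM. Ebf2, which marks brown and beige precursors, fell (log2 -1.38, SE 0.14, edgeR adjusted p = 8.7e-06) and its span overlaps Gm6878. Prdm16, the zinc finger protein of brown fat identity, did not pass at 0.00. The enzymes of mitochondria gave no call. Of 36 tested genes of fatty acid oxidation and mitochondrial enzymes, 0 were called in either direction, and without a minimum fold 1 was higher and 2 were lower in the edgeR test (3 and 1 in DESeq2), against shares of 12.2% and 16.2% over all genes. With a replicate block, without Lip+ISO replicate 1 or without replicate 1 of each group, 4 were higher. With library totals 6 were lower, and without replicate 2 or replicate 3 of each group 0 were. Cpt1a, which admits fatty acids to mitochondria, was the gene that rose in the edgeR test (log2 0.50, SE 0.08, edgeR adjusted p = 0.00049).

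Most genes of the lipid droplet and of lipolysis were not called, and those that passed were more often lower than higher. Of 24 tested, 2 were called higher and 3 lower, against 4.97% and 3.19% over all tested genes. Without a minimum fold 9 were lower and 3 higher, against 16.2% and 12.2%, with a median of -0.36. Without replicate 2 of each group, 5 rather than 9 were lower. Lipe, which encodes HSL, had 2933, 2251 and 2549.9 CPM in vehicle and 1407, 1471 and 1598 CPM in Lip+ISO, a log2 fold change of -0.79 with an SE of 0.15 (edgeR adjusted p = 0.0015). Pnpla2, which encodes ATGL, had 3391, 2843 and 3482 CPM in vehicle and 2753, 3031 and 4226 CPM in Lip+ISO, groups that overlapped (log2 0.04, SE 0.16, edgeR adjusted p = 0.87). Its log2 fold change was -0.16 without Lip+ISO replicate 3 and -0.04 with libraries scaled by their totals. Abhd5, the coactivator of ATGL, rose slightly (log2 0.52, SE 0.10, edgeR adjusted p = 0.0019), and missed the threshold without replicate 2 of each group (edgeR adjusted p = 0.053). Among droplet coat genes, Plin4 (log2 -0.63, SE 0.13, edgeR adjusted p = 0.0028) and Plin1 (log2 -0.53, SE 0.12, edgeR adjusted p = 0.0057) were lower, Plin4 overlaps Hdgfrp2, and Plin1 missed the threshold without replicate 2 of each group (edgeR adjusted p = 0.052). Plin2, a coat protein and PPAR target, had 1459, 1669.5 and 1777 CPM in vehicle and 1657, 1171 and 1067 CPM in Lip+ISO and did not pass (log2 -0.33, SE 0.15, edgeR adjusted p = 0.11), though without Lip+ISO replicate 1 it did (-0.55, edgeR adjusted p = 0.0032), as it did without replicate 1 of each group (-0.61, edgeR adjusted p = 0.0030). In ISO it stood at 2288, 2469 and 2733 CPM. Plin5 did not pass either (log2 -0.64, SE 0.25, edgeR adjusted p = 0.072) in the fit as reported, but it did with a replicate block (-0.67, edgeR adjusted p = 0.00064), with library totals (-0.71, edgeR adjusted p = 0.037), without Lip+ISO replicate 1 (-1.02, edgeR adjusted p = 0.0033) and without replicate 1 of each group (-0.83, edgeR adjusted p = 0.0018). The gene of this list with the largest rise was Hilpda, which encodes another inhibitor of ATGL, with 21.9, 22 and 28.6 CPM in vehicle, 164, 136 and 149 CPM in Lip+ISO and 312, 242 and 259.9 CPM in ISO. Its log2 fold change against vehicle was 2.63 with an SE of 0.18 (edgeR adjusted p = 2.6e-07). The receptor genes Hcar1 (log2 -1.09, SE 0.16, edgeR adjusted p = 0.00026) and Adora1 (log2 -1.19, SE 0.26, edgeR adjusted p = 0.0036), whose G-proteins restrain lipolysis, were called lower, with Adora1 overlapping Mybph.

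**Figure D4:**
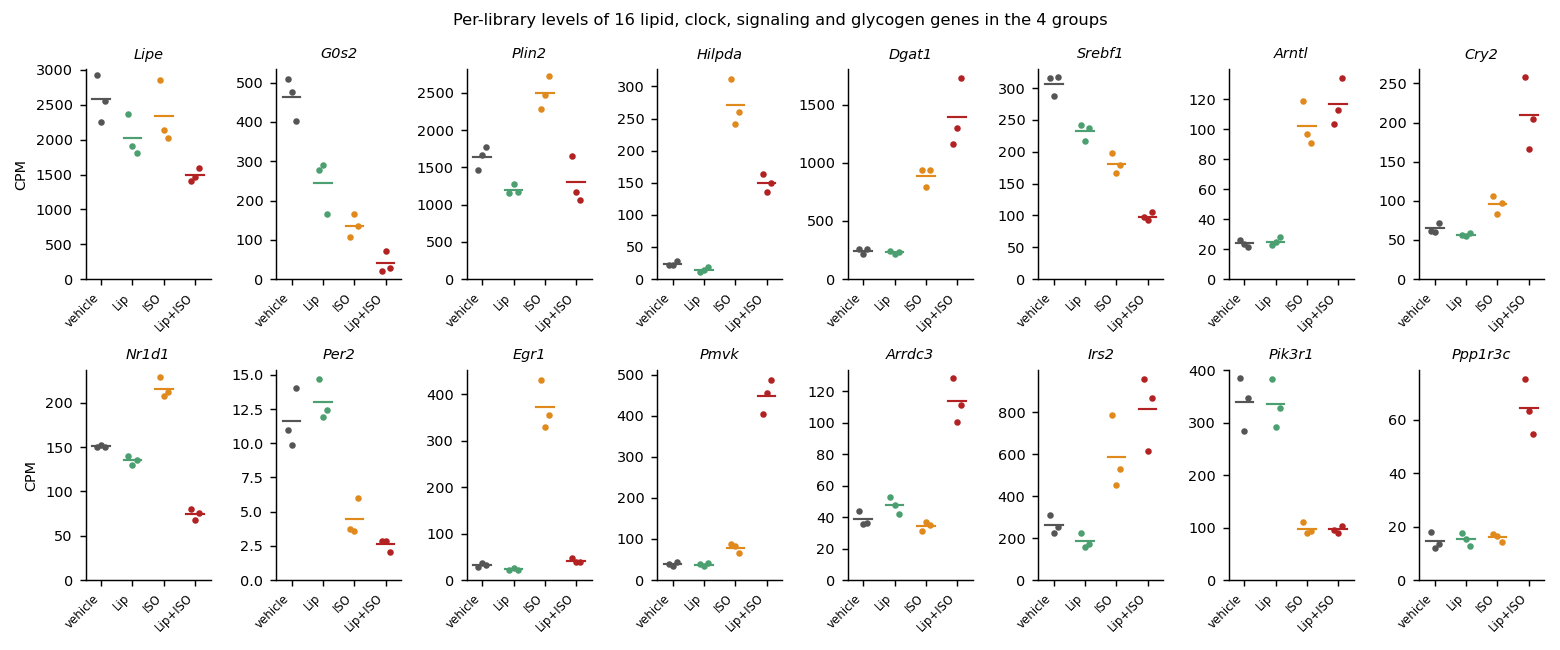
Levels in CPM on linear axes from 0 are shown for each of the 12 libraries (points) with the group mean (bar), for 16 genes of lipid, clock, signaling and glycogen control. Hilpda, Dgat1, Arntl, Cry2, Pmvk, Arrdc3, Irs2 and Ppp1r3c are higher in Lip+ISO than in vehicle, Lipe, G0s2, Srebf1, Nr1d1, Per2 and Pik3r1 are lower, and the groups overlap for Plin2. For Egr1 the Lip+ISO libraries, at 47.1, 38.1 and 38.1 CPM, lie close to vehicle and far below ISO.

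Genes that make fatty acids and triglyceride gave 1 large rise. Of 26 tested, Dgat1, which adds the last fatty acid to triglyceride, was the gene called higher, with 258, 217 and 258 CPM in vehicle and 1164, 1296 and 1728 CPM in Lip+ISO (log2 2.52, SE 0.14, edgeR adjusted p = 5.9e-08), while Dgat2 did not pass at -0.05. The transcription factors of the program were called lower. Srebf1, which encodes SREBP-1, fell from 315, 287 and 318 CPM to 96.8, 92.3 and 106 CPM (log2 -1.64, SE 0.09, edgeR adjusted p = 4.1e-08) and overlaps Rai1, and Mlxipl, which encodes the glucose sensor ChREBP, fell from 41.7, 46 and 56.8 CPM to 16.2, 18.8 and 25.7 CPM (log2 -1.25, SE 0.21, edgeR adjusted p = 0.00056). Their enzymes moved less. Acacb, an acetyl-CoA carboxylase, had a log2 fold change of -0.84 with an SE of 0.12 (edgeR adjusted p = 0.00014) and Gpam, which starts glycerolipid synthesis, of -0.60 with an SE of 0.12 (edgeR adjusted p = 0.0027). Fasn, the fatty acid synthase, did not pass (log2 -0.34, SE 0.23, edgeR adjusted p = 0.32) but did with a replicate block (-0.36, edgeR adjusted p = 0.011), without Lip+ISO replicate 3 (-0.63, edgeR adjusted p = 0.048) and without replicate 3 of each group (-0.44, edgeR adjusted p = 0.027). Without a minimum fold 7 genes of the list were lower, 11 with a replicate block, 11 with library totals and 4 without replicate 2 of each group. Of 29 tested PPAR and fatty acid responsive genes, 21 did not pass in either direction, and Angptl4, Pdk4 and Ucp3 were called lower. Klf10 was the gene called higher, at 1.08 with an SE of 0.08 (edgeR adjusted p = 4.5e-07). Pparg itself, the master regulator of adipocytes, had 354, 321 and 338 CPM in vehicle and 338, 349 and 395 CPM in Lip+ISO and did not pass (log2 0.09, SE 0.08, edgeR adjusted p = 0.46).

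Genes of glycogen-targeting subunits rose while Pfkfb3 and Pdk4 fell. Of 38 tested genes of glucose use and glycogen, 4 were called higher, and 3 of these, Ppp1r3g, Ppp1r3c and Ppp1r3b, encode glycogen-targeting subunits of protein phosphatase 1. Ppp1r3c had 17.9, 11.9 and 13.5 CPM in vehicle, 75.4, 63.2 and 54.5 CPM in Lip+ISO and 17.3, 16.6 and 14.2 CPM in ISO, a log2 fold change of 2.15 with an SE of 0.18 (edgeR adjusted p = 1.5e-06) against vehicle and of 2.01 with an SE of 0.17 (edgeR adjusted p = 2.1e-05) against ISO. Ppp1r3b rose by 1.13 with an SE of 0.23 (edgeR adjusted p = 0.0022). The fourth was Hk2, a hexokinase, with 237, 234 and 279.8 CPM in vehicle and 789, 550.4 and 615 CPM in Lip+ISO (log2 1.38, SE 0.15, edgeR adjusted p = 2.4e-05). Without a minimum fold 11 genes of the list were higher, 5 were lower and 22 did not pass. Among the 11 was Gapdh, which encodes an enzyme of glycolysis (log2 0.77, SE 0.10, edgeR adjusted p = 6.7e-05). Slc2a4, the insulin-responsive glucose transporter GLUT4, had 21.8, 17.7 and 17.6 CPM in vehicle and 11.6, 14.9 and 17.1 CPM in Lip+ISO, groups that did not overlap but whose difference did not pass (log2 -0.39, SE 0.19, edgeR adjusted p = 0.15).

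Genes of insulin signaling moved in both directions. Of 29 tested, 4 were called higher and 2 lower, with a median of -0.18. Irs2, the insulin receptor substrate that cAMP induces, had 309, 225 and 252 CPM in vehicle and 959, 617 and 868 CPM in Lip+ISO (log2 1.64, SE 0.22, edgeR adjusted p = 0.00011). Irs3, the adipocyte-enriched substrate of rodents, had 52.9, 44.6 and 55.7 CPM in vehicle and 6.79, 8.04 and 8.98 CPM in Lip+ISO (log2 -2.69, SE 0.13, edgeR adjusted p = 1.6e-08). Pik3r1, the regulatory subunit of PI3-kinase, fell from 385, 284 and 348 CPM to 95.7, 90.6 and 104 CPM (log2 -1.81, SE 0.13, edgeR adjusted p = 5.4e-07), and Insr, the receptor, fell by less than the minimum fold (log2 -0.86, SE 0.10, edgeR adjusted p = 4.7e-05). The inhibitors of the pathway Socs3 and Trib3 rose. Socs3 had 10.4, 10.7 and 12.7 CPM in vehicle and 180.1, 145 and 153 CPM in Lip+ISO (log2 3.83, SE 0.12, edgeR adjusted p = 8.1e-10), and Trib3 had 94.2, 95.1 and 93.2 and 446, 355 and 363 CPM (log2 2.04, SE 0.12, edgeR adjusted p = 6.6e-08). For both genes the Lip+ISO level was also above ISO, by 1.64 with an SE of 0.11 (edgeR adjusted p = 2.3e-06) for Socs3 and 1.21 with an SE of 0.11 (edgeR adjusted p = 4.1e-05) for Trib3.

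In sterol synthesis the largest rises were at adjacent steps of the mevalonate route. 4 of the 21 tested were called higher and 0 lower. Pmvk, phosphomevalonate kinase, had 38.5, 35.4 and 44.5 CPM in vehicle and 404, 454 and 488 CPM in Lip+ISO (log2 3.51, SE 0.14, edgeR adjusted p = 2.8e-09). Mvk, mevalonate kinase, had 38.2, 31.5 and 35.9 CPM in vehicle and 165, 185 and 199.5 CPM in Lip+ISO (log2 2.38, SE 0.13, edgeR adjusted p = 5.8e-08). ISO alone gave 87.7, 81.9 and 65.5 CPM for Pmvk, so Lip+ISO was above it by 2.52 with an SE of 0.13 (edgeR adjusted p = 2.8e-07). Hsd17b7 (log2 1.38, SE 0.12, edgeR adjusted p = 3.1e-06) and Sqle (log2 1.09, SE 0.11, edgeR adjusted p = 1.2e-05), later enzymes of the route, rose less. Srebf2 and Insig1, which control sterol synthesis, did not pass (0.20 and -0.17). Star, which brings cholesterol into mitochondria for steroid synthesis and was singled out after its values were seen, had 47.8, 56 and 48.7 CPM in vehicle and 1853, 1312 and 1315 CPM in Lip+ISO (log2 4.88, SE 0.16, edgeR adjusted p = 1.1e-09).

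Clock genes moved in both directions. Of 23 tested clock genes, 6 were called higher and 4 lower, and without a minimum fold 8 were higher and 7 lower (4 without replicate 2 of each group). Arntl, which encodes the activator BMAL1, had 26.4, 23.7 and 21.2 CPM in vehicle and 103, 113 and 134 CPM in Lip+ISO (log2 2.29, SE 0.14, edgeR adjusted p = 8.9e-08), while its partner genes Clock and Npas2 did not pass (-0.20 and -0.14). Arntl was high in ISO alone too, at 119, 96.8 and 91 CPM, and Lip+ISO did not pass against ISO (log2 0.19, edgeR adjusted p = 0.40). Nr1d1, which encodes REV-ERBα, the repressor of Arntl, fell from 149.9, 153 and 149.8 CPM to 79.6, 67.8 and 75.3 CPM (log2 -1.02, SE 0.08, edgeR adjusted p = 6.1e-07), although ISO alone stood above vehicle at 229, 207 and 212 CPM. The log2 fold change of Nr1d1 in DESeq2 was -0.99, short of the minimum fold, as was that of Dbp (-0.98, and -1.01 in edgeR). Among the period genes, which inhibit the activators, Per2 fell from 11, 9.86 and 14 CPM to 2.87, 2.89 and 2.07 CPM (log2 -2.15, SE 0.23, edgeR adjusted p = 1.7e-05), Per3 fell (log2 -1.69, SE 0.14, edgeR adjusted p = 1.4e-06) and Per1, a CREB target, rose by less than the minimum fold (log2 0.78, SE 0.13, edgeR adjusted p = 0.00050). Cry1 did not pass (-0.24), whereas Cry2, the second cryptochrome, had 62, 59.9 and 72.2 CPM in vehicle and 258, 167 and 205 CPM in Lip+ISO (log2 1.70, SE 0.14, edgeR adjusted p = 2.1e-06). Nfil3, a repressor of the output arm, had 59.3, 60.4 and 67 CPM in vehicle and 566, 448 and 446 CPM in Lip+ISO (log2 2.97, SE 0.15, edgeR adjusted p = 2.3e-08). Usp2, a deubiquitinase of clock proteins, had 7.64, 8.22 and 7.32 CPM in vehicle and 119, 106 and 117 CPM in Lip+ISO (log2 3.88, SE 0.16, edgeR adjusted p = 4.3e-09). Bhlhe40, a further repressor, rose (log2 1.27, SE 0.19, edgeR adjusted p = 0.00027) and Tef, an output activator that competes with Nfil3, was lower (log2 -0.88, SE 0.09, edgeR adjusted p = 1.6e-05).

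Of 24 tested adipocyte identity factors, 3 were called higher and 5 lower, and without a minimum fold 5 were higher (8 with a replicate block) and 8 lower. Cebpa, which keeps adipocytes differentiated, fell from 2436, 1831 and 1956 CPM to 1078, 796 and 1053 CPM (log2 -1.09, SE 0.16, edgeR adjusted p = 0.00023), and its relative Cebpb, an early inducible member, rose from 240.4, 281 and 225 to 986, 558 and 821 CPM (log2 1.66, SE 0.18, edgeR adjusted p = 1.7e-05). The pair thus moved in opposite directions. Stat5a (log2 -1.66, SE 0.10, edgeR adjusted p = 1.2e-07) and Nr3c1, the glucocorticoid receptor (log2 -1.38, SE 0.10, edgeR adjusted p = 5.6e-07), were lower. Klf4, a factor of early adipogenesis, had 31.3, 35.8 and 47.9 CPM in vehicle and 1007, 593 and 561 CPM in Lip+ISO (log2 4.23, SE 0.26, edgeR adjusted p = 1.3e-07).

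Of 29 tested genes of adipokines and secreted factors, 4 were called in each direction. Lep, the satiety hormone leptin, had 187, 133 and 122 CPM in vehicle and 37.8, 48.8 and 40.7 CPM in Lip+ISO (log2 -1.80, SE 0.25, edgeR adjusted p = 0.00014), with a mean of 41.3 CPM in ISO. Adipoq, which encodes adiponectin, had 3353, 2542 and 3491 CPM in vehicle and 1829, 2351 and 3594 CPM in Lip+ISO and did not pass (log2 -0.27, SE 0.23, edgeR adjusted p = 0.43). The groups overlapped for Adipoq and did not for Lep. Fgf2, a growth factor, had 27.1, 21.6 and 22 CPM in vehicle, 125, 103 and 157 CPM in Lip+ISO and 45.5, 33.6 and 32.1 CPM in ISO, a log2 fold change of 2.44 with an SE of 0.20 (edgeR adjusted p = 1.4e-06) against vehicle. Metrnl, a secreted factor linked to beige fat, rose (log2 2.19, SE 0.19, edgeR adjusted p = 2.1e-06). Vegfa, which drives vessel growth, passed narrowly (log2 0.49, SE 0.17, edgeR adjusted p = 0.045) and not without Lip+ISO replicate 1 (0.20, edgeR adjusted p = 0.20), and it failed in 11 of 15 fits that left out libraries. Without a minimum fold 7 genes of the list were higher, and 3 to 4 in the fits that left out vehicle replicate 1, vehicle replicate 3 or Lip+ISO replicate 1, or scaled by library totals, or used the 6 libraries alone.

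The markers of the unfolded protein response are a list that the study gives for brown adipocytes. Of the 24 markers tested here, 7 were called higher and 1 lower. Without a minimum fold 13 were higher and 2 lower, against shares of 12.2% and 16.2% over all genes, with a median of 0.55. The called rises were Klf4, Cebpb, Atf3, Dusp1, Hspa1a, Dnajb1 and Hspb8, of which Klf4, Cebpb, Atf3 and Dusp1 are also early response genes. Hspa1a, an inducible heat shock protein (log2 1.42, SE 0.36, edgeR adjusted p = 0.0097), missed the threshold without replicate 1 of each group (0.84, edgeR adjusted p = 0.066). Hspb8, a small heat shock protein, had 449, 409 and 399 CPM in vehicle and 942, 764 and 832 CPM in Lip+ISO (log2 1.01, SE 0.10, edgeR adjusted p = 8.6e-06). Hspa5, the chaperone BiP of the endoplasmic reticulum, had 929.5, 1201 and 1535 CPM in vehicle and 1686, 2124 and 2649.9 CPM in Lip+ISO (log2 0.82, SE 0.21, edgeR adjusted p = 0.011), and it did not pass without vehicle replicate 1 (0.65, edgeR adjusted p = 0.051) or without replicate 2 of each group (0.81, edgeR adjusted p = 0.12). Atf4, the factor of the integrated stress response, rose (log2 0.58, SE 0.12, edgeR adjusted p = 0.0030). Ddit3, which encodes CHOP and overlaps Mars, had 48.1, 77.2 and 83.1 CPM in vehicle and 54, 62 and 63.3 CPM in Lip+ISO, groups that overlapped (log2 -0.22, SE 0.21, edgeR adjusted p = 0.50). Thbs1 was the marker called lower.

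Of 30 tested inflammatory mediators, 6 were called higher and 1 lower, and 18 did not pass. Il6, a cytokine that adrenergic signals induce in fat, had 0.790, 1.68 and 0.822 CPM in vehicle and 9.26, 9.56 and 9.81 CPM in Lip+ISO (log2 3.13, SE 0.27, edgeR adjusted p = 2.7e-06). Ptgs2, the inducible cyclooxygenase, had 11.1, 16.8 and 6.89 CPM in vehicle and 74.6, 40.9 and 32.9 CPM in Lip+ISO (log2 2.10, SE 0.32, edgeR adjusted p = 0.00030), and Nfkbiz, an inducible regulator of NF-κB targets, rose by 1.97 with an SE of 0.17 (edgeR adjusted p = 2.1e-06). Cxcl10, a chemokine, fell (log2 -1.69, SE 0.27, edgeR adjusted p = 0.00040) and overlaps Art3. The chemokines Ccl2, Cxcl1 and Cxcl12 did not pass (-0.32, -0.15 and -0.10). Macrophage markers moved beside these genes. Their summed level over 12 genes was 56.6 to 71.4 CPM in vehicle and 76.7 to 128 CPM in Lip+ISO, without overlap. Of 11 tested, Cd14 (log2 1.74, SE 0.22, edgeR adjusted p = 7.2e-05) and Csf1r (log2 1.14, SE 0.30, edgeR adjusted p = 0.012) were called higher and the other 9 did not pass, Emr1, C1qa, Lyz2 and Cd68 among them. Csf1r missed the threshold without Lip+ISO replicate 1 (0.80, edgeR adjusted p = 0.057), replicate 1 of each group (0.76, edgeR adjusted p = 0.076) or replicate 2 of each group (1.34, edgeR adjusted p = 0.059). Cd68 passed in DESeq2 (0.59, DESeq2 adjusted p = 0.044) and without Lip+ISO replicate 3 (0.80, edgeR adjusted p = 0.0086), and Lyz2 passed without Lip+ISO replicate 3 (0.62, edgeR adjusted p = 0.035). The count of macrophage markers that were higher without a minimum fold was thus 2, 4 in DESeq2 and without Lip+ISO replicate 3, and 1 in the fits in which Csf1r was lost. The part of these cells in the rise of Il6 and the other mediators was not tested.

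Cyp1a1, the target of the aryl hydrocarbon receptor, had 1.36, 1.76 and 1.68 CPM in vehicle and 1.29, 2.59 and 2.14 CPM in Lip+ISO, groups that overlapped, and did not pass (log2 0.33, SE 0.45, edgeR adjusted p = 0.64).

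Markers of the remaining cell types gave few calls. Over 12 adipocyte markers the summed level was 36000 to 45170 CPM in vehicle and 28810 to 39180 CPM in Lip+ISO, ranges that overlapped, and Lep was the marker called lower. Endothelial markers had a summed level of 140.8 to 267 CPM in vehicle and 108 to 316 CPM in Lip+ISO, and fibroblast and preadipocyte markers of 461 to 823 and 567 to 787 CPM. Neither list had a called gene among 12. With a replicate block 2 endothelial markers and 1 fibroblast marker passed as higher without a minimum fold. In ISO alone the endothelial sums were 318 to 574 CPM and the fibroblast sums 920 to 1262 CPM, above those of Lip+ISO. Adipocyte sums in ISO, at 31710 to 41670 CPM, overlapped those of Lip+ISO. The part of cell content in the differences between Lip+ISO and ISO was not tested. Pericyte and smooth muscle markers had summed levels of 413 to 595 and 569.5 to 605 CPM with Mylk and Kcnj8 called higher (1.12 and 1.14), and mesothelial markers of 31.6 to 79.3 and 50.9 to 76.5 CPM with Wt1 called higher (1.44). Lymphocyte markers stayed under 4 CPM in all 6 libraries but did not overlap, at 1.17 to 1.90 CPM in vehicle and 2.62 to 3.72 CPM in Lip+ISO. Of their 2 tested genes Cd3e was called higher (edgeR adjusted p = 0.021), with at most 2 counts in each vehicle library and 0.445, 0.556 and 0.715 CPM in Lip+ISO, and the call was lost in 6 of 15 fits that left out libraries. Erythrocyte and epididymal epithelium markers did not exceed 1.15 CPM in sum.

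**Figure D5:**
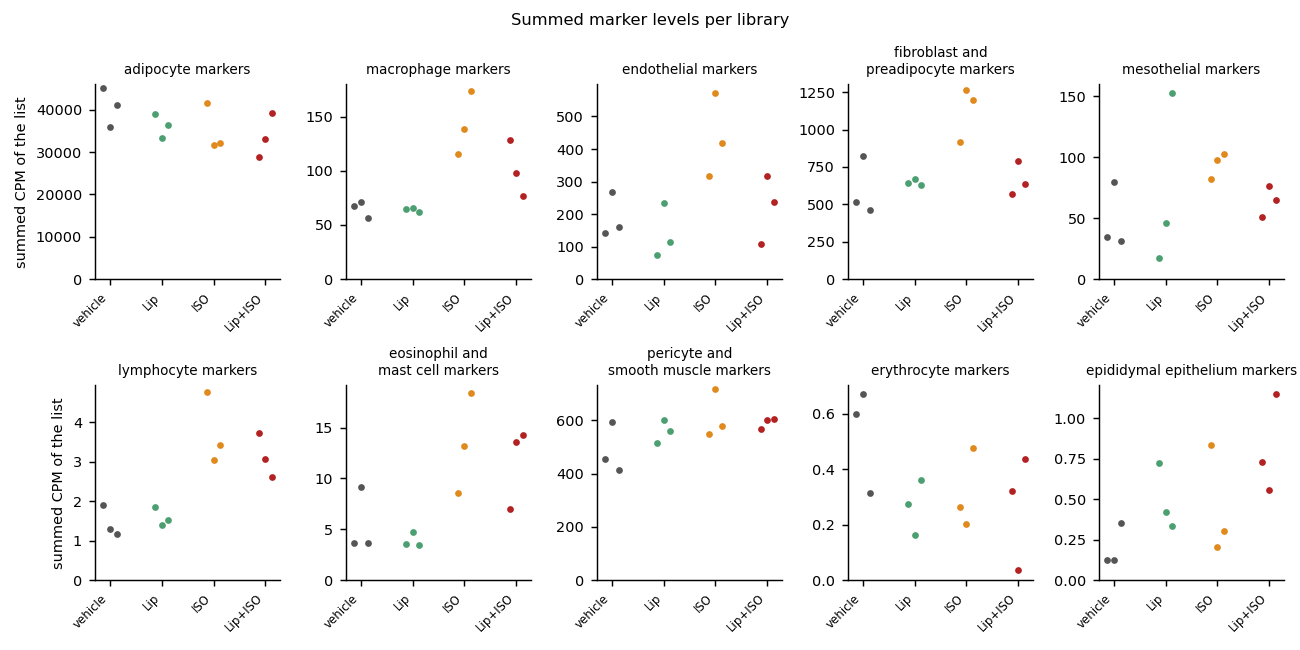
The summed CPM of each cell type marker list is shown for each of the 12 libraries (points) on linear axes from 0. Adipocyte markers exceed the others by far, the macrophage sums of the 3 Lip+ISO libraries (76.7 to 128 CPM) lie above those of vehicle (56.6 to 71.4 CPM), and the endothelial and fibroblast sums of the 2 groups overlap.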

How the data were processed

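The authors deposited 1 table of raw read counts per gene with no normalization, made per the study's methods by aligning reads to the mouse build mm9 with STAR (version 2.4.2a in the submitters' processing notes) and counting with HOMER, which accepted 1 read per position and length, and iRNA-seq. Strand use in the counting is not given in the sources used here. The counts were tested as deposited in R 4.3.3 with edgeR 4.0.16 (filterByExpr, TMM, quasi-likelihood F-test, two-sided) in 1 model of all 12 libraries and 4 groups, so that the groups share 1 estimate of spread. The study calls the cultures independent experiments, and p-values measure the spread between these 3 libraries per group. Same-numbered vehicle and Lip+ISO libraries deviated together (correlations 0.12, 0.33 and 0.27), so the replicate number was also fitted as a block (the replicate block). Further alternatives were DESeq2 1.42.0, other scalings, no filter, the 6 libraries alone and leaving out libraries. Coordinates are those of the deposited table, with starts counted from 1, and promoters are RefSeq's on another build.

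Named genes are the 8 largest rises and falls among calls whose groups did not overlap and whose higher group reached 5 CPM, the 5 called genes of highest level in each direction, the 4 lowest adjusted p-values of each list and a fixed set. The comparison, lists and fixed genes were chosen with earlier results of these data known, and further list members were named after their values were seen. A few genes that the rule for named genes selects are not reported here.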

Additional observations from a re-analysis of the deposited data

How the results depend on the processing

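The count of 673 genes called higher ranged from 596 (6 libraries alone) to 734 (no filter) over the other scalings, filters and tests, and from 513 to 706 when libraries or replicate numbers were left out. The count of 432 called lower ranged from 390 to 511 and from 375 to 450. It was 732 and 449 with a replicate block. 3 changes of rule moved a count by more than 1.5 times. Without a minimum fold 1649 genes were higher and 2199 lower, and with at least 5 CPM and no overlap 420 were higher. Rises made 60.9% of calls, 54.3% with library totals, which moved the median of all genes to -0.08, and 64.9% with DESeq2.

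Among named genes the replicate block brought Fasn, Mdh2 (0.22, edgeR adjusted p = 0.040), Pgm3 and Plin5 past the adjusted p threshold against vehicle. Their changes stayed below the minimum fold, and no other named gene crossed the adjusted p threshold against vehicle. Values that changed sign were small and did not pass in any direction. Against vehicle, Pnpla2 ranged from -0.16 to 0.21 when libraries were left out (-0.04 with library totals), Gfpt1 from -0.04 to 0.20 (0 with library totals), Has2 from -0.16 to 0.27 (-0.04 with library totals), and Fabp4 from -0.28 to 0.04. Against ISO, Adipoq ranged from -0.19 to 0.60, Adrb3 from -0.17 to 0.39 and Lep from -0.17 to 0.46. Acads, at -0.29, passed in 3 of 15 such fits. The cause was not tested. With 3 libraries per group, genes near the floor of 3 counts have folds that depend on the prior count, and their bounds cover counting error only.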

Other observations

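Some genes outside the lists changed as much as those described. They were picked after their values had been seen, and each was called in Lip+ISO against vehicle. Wnt9b, a secreted Wnt ligand, had 0.568, 0.755 and 0.822 CPM in the 3 vehicle libraries and 32.8, 37.9 and 56 CPM in the 3 Lip+ISO libraries, a log2 fold change of 5.89 with an SE of 0.37 (edgeR adjusted p = 1.4e-07). In ISO its libraries held 10.4, 5.00 and 4.63 CPM, and Lip+ISO exceeded them by 2.67 with an SE of 0.29 (edgeR adjusted p = 0.00011). Cd55, a surface protein that protects cells from complement, had 17.3, 14.9 and 17.5 CPM in vehicle, 305, 368 and 573 CPM in Lip+ISO and 97.7, 88.9 and 124 CPM in ISO, a log2 fold change of 4.64 with an SE of 0.23 (edgeR adjusted p = 2.1e-08) against vehicle and of 2.00 with an SE of 0.20 (edgeR adjusted p = 6.3e-05) against ISO. For both genes no library of vehicle overlapped a library of Lip+ISO.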
